A study of Homo sapiens with 18 samples.

Results

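The 46 genes described here act in mitosis or in the step from G2 into mitosis. They were chosen by name, with earlier results of these data known. All 46 were found among the 23686 gene symbols of the count tables and passed the filter on low counts in both cell lines. Levels are CPM (counts scaled to a common library size by TMM) unless said otherwise. They were followed in OCI-Ly1 and TMD8, 2 established human cell lines of diffuse large B-cell lymphoma. Each line had 3 groups of 3 RNA-seq libraries: 0.01% DMSO as the vehicle, 150 nM JIB-04, and 500 nM JIB-04. JIB-04 is a small-molecule inhibitor of Jumonji histone demethylases. The labels name no genetic change, no other agent and no treatment time. The medium was IMDM for OCI-Ly1 but RPMI for TMD8, and line and medium cannot be told apart. The libraries are labelled as technical triplicates, and nothing says that they came from separate cultures, so every p-value measures only the spread between these libraries, which may be technical.

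Most of these genes are switched on together late in the cell cycle. CDK1 with cyclin B drives entry into mitosis, Polo-like and Aurora kinases build and correct the spindle, and kinesins move chromosomes and microtubules. Kinetochores tie chromosomes to the spindle, the spindle checkpoint holds back the anaphase-promoting complex (APC/C) until all are attached, and CDC20 then activates that complex. Many of these genes are held down in resting cells by the DREAM complex and raised by B-MYB and FOXM1, through promoter elements called CHR. Their promoters often hold CCAAT boxes too, which are not the sites of those regulators. In bulk RNA, fewer cells in G2 or mitosis and less RNA per cell cannot be told apart.

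Each OCI-Ly1 library held 17579732 to 32651115 estimated counts, and each TMD8 library held 9550092 to 20509500. The lowest count of any member in any library was 88. The B-cell genes MS4A1, CD79A, CD79B and PAX5 were present in every library. MS4A1 lay at 361 to 567 CPM in OCI-Ly1 and 1046 to 1610 CPM in TMD8, and PAX5 at 91.3 to 125 CPM and 402 to 506 CPM. CD79A lay at 181 to 216 CPM in OCI-Ly1 and 354 to 402 in TMD8. CD79B went the other way, at 287 to 401 CPM in OCI-Ly1 and 175 to 227 in TMD8. Of 4 germinal-centre markers, OCI-Ly1 held MME at 256 to 398 CPM, BCL6 at 209 to 235, MYBL1 at 40.2 to 69.5 and LMO2 at 0 to 1.67. TMD8 held BCL6 at 43.96 to 62.1 CPM, LMO2 at 19.1 to 55.7, MYBL1 at 6.06 to 9.29 and MME at 0 to 0.252. Their sum went from 638 to 665 CPM in DMSO to 529.8 to 549 at 500 nM in OCI-Ly1, and from 105 to 112 to 86.4 to 89.9 in TMD8. Of 4 activated B-cell markers, IRF4 lay at 217 to 455 CPM in OCI-Ly1 and 1732 to 2902 in TMD8, and CCND2 at 0.0387 to 0.329 and 722 to 1150. FOXP1 lay at 158 to 226 CPM and 278 to 392, and BATF at 2.22 to 6.11 and 80.1 to 156. Their sum went from 395 to 412 CPM in DMSO to 641 to 679 at 500 nM in OCI-Ly1, and from 4193 to 4523 to 2919 to 2959 in TMD8. Summed T-cell markers (4 of 4 genes seen in OCI-Ly1, 3 of 4 in TMD8, where CD3E was at 0) went from 18.8 to 22.5 CPM in DMSO to 8.40 to 9.42 at 500 nM in OCI-Ly1. In TMD8 they went from 1.65 to 2.26 CPM to 3.22 to 3.38. The summed epithelial and stromal markers (4 genes) went from 16.2 to 18.9 CPM to 10.4 to 11.7 in OCI-Ly1, and from 9.65 to 12.95 CPM to 39.95 to 40.9 in TMD8, where COL1A1 reached 30.0 CPM and EPCAM stayed at or under 0.168 CPM. Their part in the results was not tested. DMSO library 1 of TMD8 stood apart from the other two of its group, with a chi-square per degree of freedom of 10.3 and 10.9 against 1.90 between those.

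RefSeq promoter windows (GRCh38.p14) were found for 39 of the 46 genes. In the 250 bases before the start, a CHR match (TTTGAA or TTCGAA, either strand) was present in 23 of the 39 genes (59.0%), against 17.2% of the 27300 genes in the table and 14.3% of its 35116 windows (a gene can have several starts). CCAAT, on either strand, was present in 33 of the 39 (84.6%), against 37.0% of genes and 32.0% of windows. An E2F match (TTTCCCGC, TTTGGCGC, TTTCGCGC or TTTGCCGC, either strand) was present in 1 of the 39 (2.56%), against 3.40% of genes and 2.79% of windows. Of 33 CHR matches, 21 lay within 100 bases of the start and 18 within 50. With the 50 bases after the start added to the window, a choice made after seeing the data, the CHR count was 30 of 39 genes, or 34 of their 50 windows, against 16.4% of all windows. These matches are descriptions of letters, not of bound sites. The windows of 7 genes are shown 5′ to 3′ on the gene's strand, each ending at the base before the start, with CHR and CCAAT matches of either strand in capitals (TTCAAA and ATTGG are the reverse reading). The first 6 belong to the genes with the largest mean fall in 6 of the role groups, among genes with a window, and SPC25 had the smallest mean change of all 46.
CCNB1, chr5:69166900-69167149, plus strand: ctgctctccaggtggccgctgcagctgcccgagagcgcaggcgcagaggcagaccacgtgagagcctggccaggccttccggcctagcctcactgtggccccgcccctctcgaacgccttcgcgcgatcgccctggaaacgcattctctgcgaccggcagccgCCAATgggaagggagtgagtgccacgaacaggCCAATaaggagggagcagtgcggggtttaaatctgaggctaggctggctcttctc
BUB1, chr2:110678064-110678313, minus strand: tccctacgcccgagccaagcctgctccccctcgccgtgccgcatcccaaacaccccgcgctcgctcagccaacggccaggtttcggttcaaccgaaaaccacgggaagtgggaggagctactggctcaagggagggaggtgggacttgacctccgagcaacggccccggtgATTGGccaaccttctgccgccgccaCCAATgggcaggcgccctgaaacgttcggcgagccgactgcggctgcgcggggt
CDC20, chr1:43358731-43358980, plus strand: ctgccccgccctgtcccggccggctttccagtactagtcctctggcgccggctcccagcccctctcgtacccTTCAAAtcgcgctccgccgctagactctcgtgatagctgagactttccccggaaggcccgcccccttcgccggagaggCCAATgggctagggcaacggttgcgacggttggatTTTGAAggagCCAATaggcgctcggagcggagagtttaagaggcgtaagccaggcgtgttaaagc
PLK1, chr16:23678639-23678888, plus strand: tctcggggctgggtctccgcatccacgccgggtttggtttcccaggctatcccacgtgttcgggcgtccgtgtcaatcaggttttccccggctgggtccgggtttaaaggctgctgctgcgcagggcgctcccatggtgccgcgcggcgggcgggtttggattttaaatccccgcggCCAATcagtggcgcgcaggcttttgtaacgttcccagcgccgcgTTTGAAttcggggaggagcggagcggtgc
KIF20A, chr5:138178862-138179111, plus strand: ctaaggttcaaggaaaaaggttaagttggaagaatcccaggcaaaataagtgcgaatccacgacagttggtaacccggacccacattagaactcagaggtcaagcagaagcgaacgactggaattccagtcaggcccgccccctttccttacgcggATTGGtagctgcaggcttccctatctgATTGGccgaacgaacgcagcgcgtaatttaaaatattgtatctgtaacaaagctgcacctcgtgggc
CENPE, chr4:103198344-103198593, minus strand: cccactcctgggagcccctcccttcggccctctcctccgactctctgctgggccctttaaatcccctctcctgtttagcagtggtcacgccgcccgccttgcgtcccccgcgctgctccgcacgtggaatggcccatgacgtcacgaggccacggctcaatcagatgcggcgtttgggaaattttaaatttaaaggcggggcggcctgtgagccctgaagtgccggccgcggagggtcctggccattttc
SPC25, chr2:168890431-168890680, minus strand: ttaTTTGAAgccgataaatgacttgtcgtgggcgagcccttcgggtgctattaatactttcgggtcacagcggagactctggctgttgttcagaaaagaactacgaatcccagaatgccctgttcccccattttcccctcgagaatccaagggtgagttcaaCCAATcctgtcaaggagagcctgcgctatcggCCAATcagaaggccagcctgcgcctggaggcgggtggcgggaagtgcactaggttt

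In PLK1 the CHR match began 29 bases before the start and a CCAAT match 73 bases before it. CDC20 held CHR matches at 178 and 65 bases before the start and CCAAT matches at 100 and 55. CCNB1 had CCAAT matches at 87 and 55 bases before the start and no CHR match in this window. SPC25 had its CHR match at 247 bases before the start, near the far end of the window, and CCAAT matches at 88 and 56. At 500 nM, the 23 genes with an upstream CHR match had median log2 fold changes of -0.49 in OCI-Ly1 and -1.07 in TMD8. The 16 without one there had medians of -0.57 and -1.31. With the 50 bases after the start added, 30 of the 39 genes held a match, so the 16 include genes with a match. The medians were not recomputed for that window, and whether a CHR match goes with the size of the fall was not tested.

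Nearly all of the 46 genes were lower with JIB-04 in TMD8 at both doses, and most of them were lower in OCI-Ly1 at 500 nM. A gene was called at an edgeR adjusted p under 0.05. In TMD8, 44 of the 46 were called lower at 150 nM, against 25.0% of all 15363 genes tested, and 45 at 500 nM, against 30.7%. Of these, 4 at 150 nM and 29 at 500 nM fell by at least 1 on the log2 scale, against 0.299% and 2.15% of all genes. In TMD8, 0 were called higher at either dose by edgeR (19.2% and 29.9% of all genes) or DESeq2. At an unadjusted p under 0.05, 0 were higher (23.2% and 32.0% of all genes), but without TMM scaling SPC25 was called higher at 150 nM (log2 fold change 0.14, adjusted p = 0.0297). In OCI-Ly1, 38 of 46 were called lower at 500 nM, against 25.9% of 15638 genes, and 0 higher by edgeR (27.7% of genes) or DESeq2, with 0 higher at an unadjusted p under 0.05 (30.1% of genes). There 8 fell by at least 1 on the log2 scale, against 2.74% of genes. All 3 libraries at 500 nM lay below all 3 with DMSO for 40 members in OCI-Ly1 (29.3% of genes) and for 45 in TMD8 (33.3%), where the same held for 45 at 150 nM (28.3%). At 500 nM, 37 of the 46 were called lower in both lines, against 13.7% of the 14483 genes tested in both. The median log2 fold change of the 46 genes at 500 nM was -0.50 in OCI-Ly1 and -1.22 in TMD8, beside -0.00330 and 0.0414 over all genes tested.

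The low dose separated the lines. In OCI-Ly1 at 150 nM, edgeR called 0 of the 46 genes lower and 0 higher, against 0.141% and 0.748% of all genes. At an unadjusted p under 0.05, 7 were lower and 1 was higher, against 4.64% and 5.51% of all genes, and DESeq2 called 1 lower and 0 higher. The libraries of the groups did not overlap for 9 lower and 1 higher member, against 7.29% and 6.73% of genes. The median change was -0.02, against -0.65 at the same dose in TMD8. The 7 genes were PLK1, CDC20, KIF20A, CCNB1, AURKA, AURKB and INCENP, chosen for mention after their values were seen. PLK1 came closest, with a log2 fold change of -0.27 (SE 0.06, adjusted p = 0.0558), and was called under DESeq2 (0.0141), with no low-count filter (0.0128), without 150 nM library 1 (0.0167) and without DMSO library 3 (0.0478). CDC20 (log2 fold change -0.20, adjusted p = 0.165) was called without 150 nM library 1, at 0.0389. From 150 to 500 nM, 38 genes fell in OCI-Ly1, against 21.1% of all genes, and 43 in TMD8, against 15%.

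**Figure D1:**
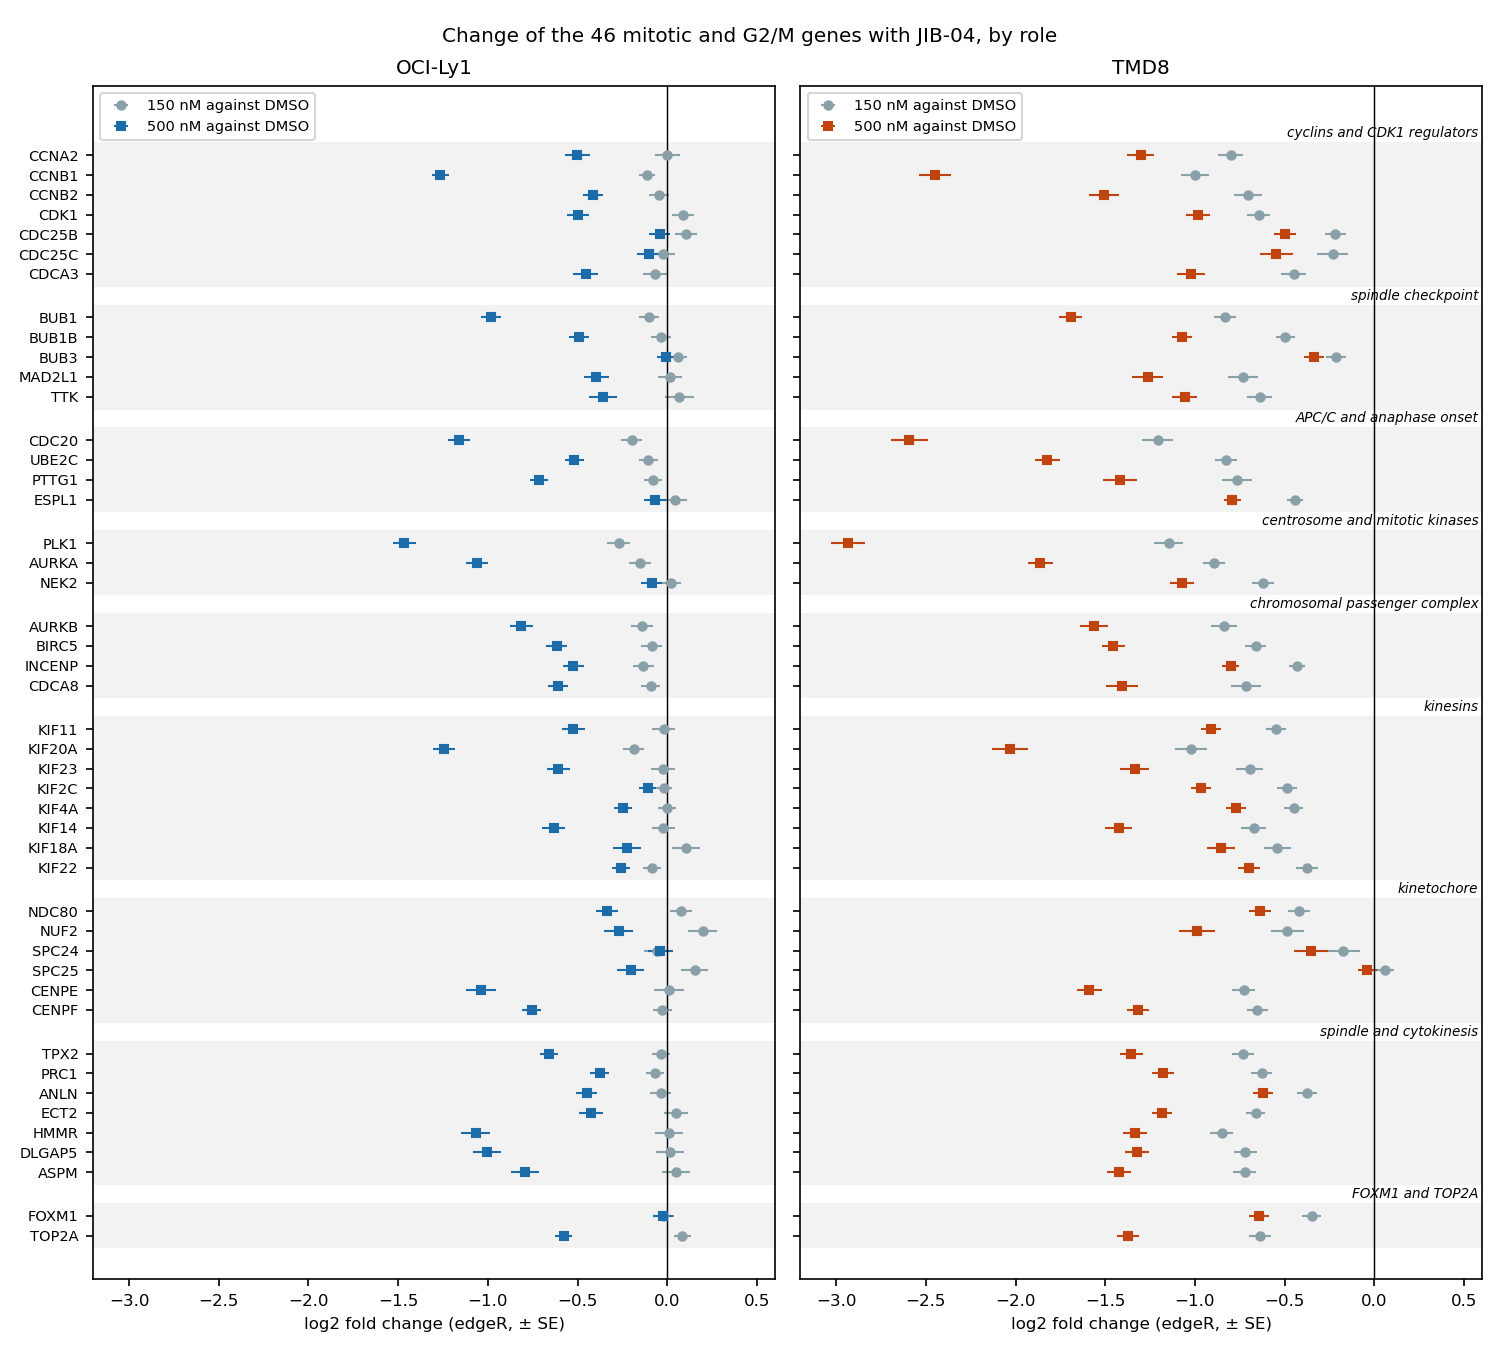
Log2 fold change against DMSO (x axis, edgeR, bars are ± SE) of each of the 46 genes, grouped by role, in OCI-Ly1 (left) and TMD8 (right); circles are 150 nM and squares 500 nM. In OCI-Ly1 the 150 nM points lie between -0.27 and 0.20, while in TMD8 they lie between -1.21 and 0.06 and the 500 nM points reach -2.93.

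As a share of all estimated counts, the 46 genes together made up 0.853% ± 0.029 (SD, n = 3) of the OCI-Ly1 libraries with DMSO. With JIB-04 the OCI-Ly1 share was 0.850% ± 0.030 (150 nM) and then 0.609% ± 0.011 (500 nM). In TMD8 the DMSO share was 0.570% ± 0.022, followed by 0.389% ± 0.023 and 0.262% ± 0.00031. The 500 nM libraries lay below all others of their line, and in TMD8 the 150 nM libraries lay between the other groups without overlap. In summed TPM (a level per transcript length), the 46 genes at 500 nM had 75.5% of their DMSO level in OCI-Ly1. In TMD8 they had 57.1% at 150 nM and 32.8% at 500 nM. The TMD8 sum with DMSO was 1504 ± 210 TPM (SD, n = 3), with library 1 at 1746. On log2(TPM + 1) the median of all genes at 500 nM was itself 0.10 in OCI-Ly1 and -0.22 in TMD8. The TPM sums are not corrected for these opposite shifts, which widen the gap between the lines.

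**Figure D2:**
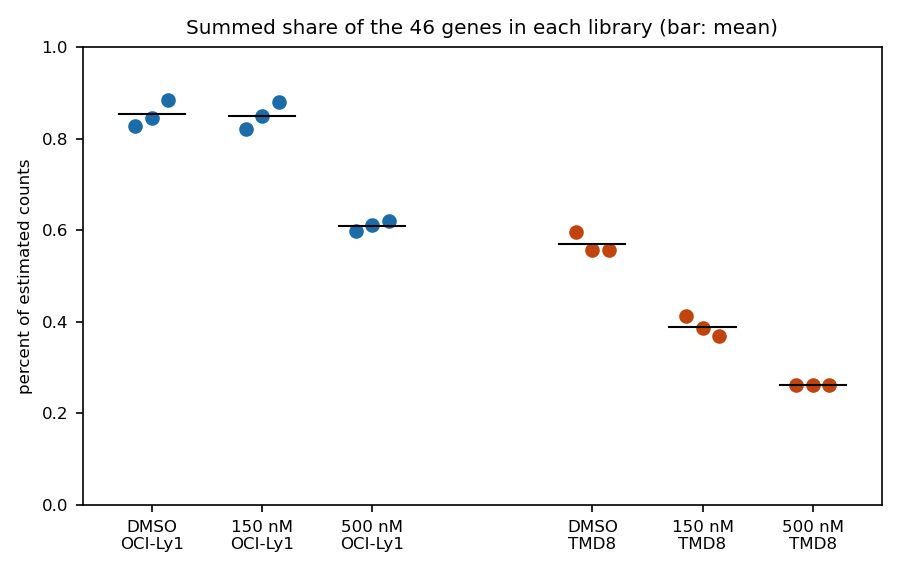
Summed share of the 46 genes in each library (y axis, percent of the library's estimated counts), by line and group; points are libraries and bars the mean of 3. The OCI-Ly1 libraries with DMSO and 150 nM share the same range, while the TMD8 shares step down at each dose.

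By level per length in DMSO, PTTG1 led in OCI-Ly1 at 317.5 TPM ± 2.1 (SD, n = 3), followed by TOP2A at 253 ± 19. UBE2C followed at 206 ± 3.8 TPM and BUB3 at 193 ± 10.5 TPM. The mean ± SD ranges of UBE2C and BUB3 overlapped, and those of the higher neighbours did not. In TMD8, UBE2C led at 99.1 TPM ± 11.8, followed by TOP2A at 80.8 ± 13.1 and BUB3 at 71.9 ± 9.3 TPM, and the mean ± SD ranges of these neighbours overlapped. ESPL1 was lowest in OCI-Ly1 at 17.4 TPM ± 0.9 and CDC25C in TMD8 at 4.84 ± 0.40 TPM.

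Cyclins and the regulators of CDK1 control entry into mitosis, and 5 of these 7 genes fell in OCI-Ly1 at 500 nM (group median -0.45) and 7 of 7 in TMD8 (median -1.02). CCNB1 encodes cyclin B1, the mitotic partner of CDK1. Its OCI-Ly1 libraries held 299, 287 and 296 CPM with DMSO, 276, 267 and 273 at 150 nM, then 119, 121 and 126 at 500 nM. In TMD8 they held 208, 184 and 184 CPM, then 109.6, 97.6 and 81.5, then 37.2, 34.4 and 33.5. All groups were apart from each other in both lines. At 500 nM CCNB1 fell to 41.6% of DMSO in OCI-Ly1 (log2 fold change -1.27, SE 0.05, adjusted p = 3.26e-13) and to 18.3% in TMD8 (-2.45, SE 0.09, adjusted p = 5.47e-13). CDK1 itself fell by 0.50 and 0.98 on the log2 scale, CCNA2 by 0.50 and 1.30, CCNB2 by 0.41 and 1.51, and CDCA3, a protein that promotes WEE1 degradation, by 0.45 and 1.02 (OCI-Ly1 and TMD8 at 500 nM).

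The CDC25 phosphatases, which remove the inhibitory phosphates from CDK1, moved less. CDC25B lay at 76.2, 76.4 and 73.3 CPM in the OCI-Ly1 vehicle libraries, 85.8, 78.1 and 78.6 at the low dose and 71.0, 71.0 and 77.3 at the high dose, so the DMSO and 500 nM groups overlapped (log2 fold change -0.04, SE 0.06, adjusted p = 0.567). In TMD8 it held 59.5, 53.4 and 54.9 CPM with DMSO, 48.2, 48.3 and 47.8 with 150 nM, then 39.1, 38.1 and 41.8 with 500 nM. There CDC25B fell at 500 nM (-0.50, SE 0.06, adjusted p = 1.24e-06) and at 150 nM (-0.22, SE 0.06, adjusted p = 0.00537). The 150 nM call was lost without TMM scaling (adjusted p = 0.0530). CDC25C had a value of -0.10 in OCI-Ly1, which was not called (adjusted p = 0.201), and fell by 0.55 in TMD8.

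Of the 5 spindle checkpoint genes, 4 fell in OCI-Ly1 at 500 nM (median -0.40) and 5 in TMD8 (median -1.07). BUB1, a checkpoint kinase at kinetochores, had 210, 231 and 240.5 CPM with DMSO in OCI-Ly1, 204, 210 and 220 at 150 nM, then 116, 117 and 113 at 500 nM. In TMD8 BUB1 had 187, 166 and 166 CPM, then 105, 96.5 and 90.2, then 55.6, 51.8 and 52.8. The DMSO and 150 nM libraries overlapped in OCI-Ly1 and not in TMD8. BUB1 fell by 0.98 (SE 0.06, adjusted p = 1.16e-10) in OCI-Ly1 and by 1.69 (SE 0.06, adjusted p = 9.16e-13) in TMD8 at 500 nM. BUB1B, which blocks CDC20 as part of the checkpoint complex, fell by 0.49 and 1.07, MAD2L1, another part of it, by 0.40 and 1.26, and TTK, the kinase at the head of the checkpoint, by 0.36 and 1.06.

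BUB3, which carries BUB1 and BUB1B to kinetochores, was the exception in OCI-Ly1. Its libraries held 284, 288 and 303 CPM with DMSO, 290.3, 310.2 and 311 at 150 nM, then 287, 288 and 292 at 500 nM. The groups overlapped, and the log2 fold change at 500 nM was -0.01 (SE 0.05, adjusted p = 0.876). In TMD8 BUB3 had 193, 173 and 180.3 CPM with DMSO, 166, 160.2 and 145 at 150 nM, then 144, 146 and 143 at 500 nM. It fell there by 0.34 at 500 nM (SE 0.06, adjusted p = 4.31e-05) and by 0.22 at 150 nM (adjusted p = 0.00382), the latter not called without 150 nM library 3 (adjusted p = 0.0596).

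Among the 4 genes of the APC/C and anaphase onset, 3 fell in OCI-Ly1 at 500 nM (median -0.62) and 4 in TMD8 (median -1.62). CDC20, the APC/C activator that the checkpoint restrains, held 182, 168 and 169 CPM with DMSO in OCI-Ly1, 159.9, 145 and 147 at 150 nM, then 72.6, 79.4 and 80.5 at 500 nM. In TMD8 it held 150.2, 133 and 138 CPM, then 71.5, 60.4 and 51.6, then 23.5, 20.5 and 26.4. No group overlapped another in either line. At 500 nM CDC20 fell to 44.8% of DMSO in OCI-Ly1 (-1.16, SE 0.06, adjusted p = 2.98e-11) and to 16.6% in TMD8 (-2.59, SE 0.10, adjusted p = 1.09e-12). UBE2C, the ubiquitin-conjugating enzyme of the APC/C, went from 109, 113 and 108 CPM to 76.8, 76.0 and 77.1 in OCI-Ly1 at 500 nM and from 98.2, 92.5 and 93.7 to 27.6, 25.7 and 27.1 in TMD8. UBE2C thus fell by 0.52 (adjusted p = 2.45e-07) and by 1.82 (adjusted p = 6.60e-13).

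PTTG1, the securin that the APC/C destroys, fell by 0.72 and 1.42. The near-identical copies PTTG2 and PTTG3P had at most 12 counts in any library, beside 177 to 3576 for PTTG1. ESPL1, the separase that securin holds back, had 96.3, 88.5 and 88.3 CPM with DMSO in OCI-Ly1 and 82.9, 92.3 and 85.2 at 500 nM, which overlap (-0.07, SE 0.06, adjusted p = 0.358). In TMD8 ESPL1 had 139, 131 and 138 CPM with DMSO, 101, 100.5 and 98.5 at 150 nM, then 79.0, 80.7 and 75.5 at 500 nM. It fell there by 0.79 (SE 0.05, adjusted p = 1.72e-10) at 500 nM.

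The centrosome and mitotic kinases had the most negative group medians, -1.06 in OCI-Ly1 (2 of 3 called) and -1.86 in TMD8 (3 of 3). PLK1, the Polo-like kinase active from mitotic entry to cytokinesis, had the most negative change of all 46 genes in each line at 500 nM. Its OCI-Ly1 libraries held 99.2, 110.4 and 97.8 CPM with DMSO, 89.8, 81.3 and 83.2 at 150 nM, then 35.0, 38.7 and 37.6 at 500 nM. In TMD8 they held 209, 184 and 186 CPM, then 101, 88.0 and 73.8, then 26.3, 24.7 and 24.4. The groups did not overlap in either line. PLK1 fell to 36.2% of DMSO in OCI-Ly1 at 500 nM (SE 0.07 on the log2 scale, adjusted p = 4.04e-12) and to 13.1% in TMD8 (log2 fold change -2.93, SE 0.09, adjusted p = 1.76e-13). AURKA, the Aurora kinase of spindle poles, fell by 1.06 and 1.86.

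NEK2, a kinase that helps centrosomes separate, had 83.9, 92.0 and 93.6 CPM with DMSO in OCI-Ly1, 86.4, 92.3 and 94.1 at 150 nM, then 84.6, 83.0 and 86.2 at 500 nM. These groups overlap (-0.09 at 500 nM, SE 0.06, adjusted p = 0.229). In TMD8 NEK2 had 46.5, 44.1 and 46.03 CPM, then 28.7, 30.2 and 29.9, then 21.8, 22.9 and 19.9, with every group apart. It fell by 1.07 (SE 0.07, adjusted p = 2.82e-10) at 500 nM.

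The chromosomal passenger complex corrects faulty attachments and guides cytokinesis, and all 4 of its genes fell in each line at 500 nM (medians -0.61 and -1.43). AURKB is its kinase. It had 70.6, 67.5 and 67.6 CPM with DMSO in OCI-Ly1, 64.9, 58.1 and 64.0 at 150 nM, then 37.6, 39.5 and 40.0 at 500 nM. In TMD8 AURKB had 79.9, 70.9 and 71.3 CPM, then 46.3, 39.6 and 38.8, then 24.1, 24.2 and 27.3. It fell by 0.81 (SE 0.06, adjusted p = 6.37e-09) and 1.56 (SE 0.08, adjusted p = 2.05e-11) at 500 nM. BIRC5 (survivin) fell by 0.62 and 1.46, and CDCA8 (borealin) by 0.61 and 1.41. INCENP, the scaffold, had the smallest falls of this group, from 121, 116 and 117 CPM to 78.1, 88.6 and 80.4 in OCI-Ly1 (-0.52, adjusted p = 1.30e-06) and from 208, 201 and 199.9 to 113, 115 and 122 in TMD8 (-0.80, adjusted p = 1.83e-10).

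**Figure D3:**
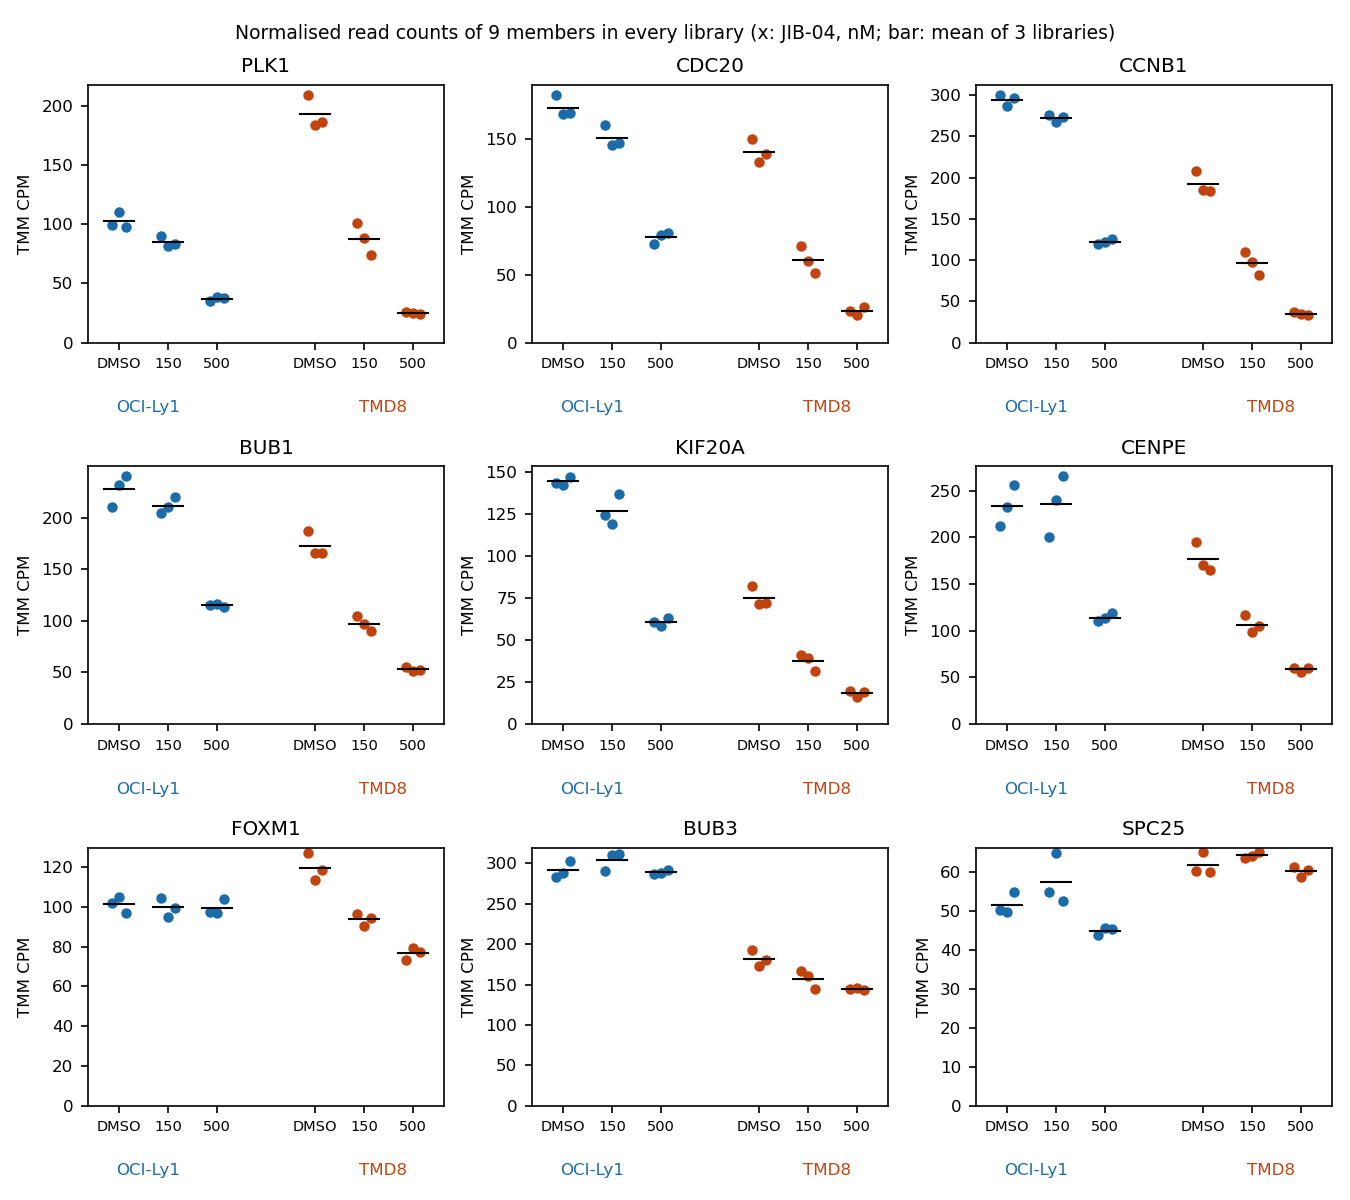
TMM-scaled level in CPM (y axis, from 0) of 9 members in every library of OCI-Ly1 (blue) and TMD8 (orange) by JIB-04 dose (x axis, nM); points are libraries and bars the mean of 3. PLK1, CDC20, CCNB1, BUB1, KIF20A and CENPE fell in both lines at 500 nM, FOXM1 and BUB3 fell in TMD8 and were not called in OCI-Ly1, and SPC25 in TMD8 stayed between 58.6 and 65.2.

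Of the 8 mitotic kinesins, 7 fell in OCI-Ly1 at 500 nM (median -0.39) and 8 in TMD8 (median -0.94). KIF20A, which acts with PLK1 in the central spindle, had 143, 142 and 147 CPM with DMSO in OCI-Ly1, 124, 119 and 137 at 150 nM, then 60.9, 58.5 and 62.9 at 500 nM. In TMD8 it had 82.2, 71.6 and 71.8 CPM, then 41.2, 39.4 and 31.4, then 19.8, 16.2 and 19.1. KIF20A fell by 1.25 (SE 0.06, adjusted p = 9.96e-12) in OCI-Ly1 and by 2.03 (SE 0.10, adjusted p = 1.57e-11) in TMD8. Next among the kinesins by the size of the fall in each line were KIF14, a cytokinesis motor (falls of 0.63 and 1.42), and KIF23, the motor of the centralspindlin complex (0.61 and 1.34). KIF11, the motor that pushes spindle poles apart, fell by 0.52 and 0.91. The chromokinesin KIF4A fell by 0.25 and 0.77, and KIF18A, which limits microtubule length, by 0.22 and 0.85. The copy KIF4B had at most 8 counts in any library.

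KIF2C, the kinesin that takes microtubules apart at centromeres, had 176, 179 and 174 CPM with DMSO in OCI-Ly1, 176, 172 and 172 at 150 nM, then 166, 163 and 160.1 at 500 nM. The DMSO and 500 nM libraries did not overlap, but edgeR did not call it (-0.11, SE 0.05, adjusted p = 0.0586), while DESeq2 did (0.0378). In TMD8 KIF2C went from 115, 109 and 109 CPM to 85.8, 78.0 and 74.1 and then to 55.9, 58.0 and 56.4. It fell there by 0.97 (SE 0.06, adjusted p = 1.26e-10). KIF22, a chromokinesin that pushes chromosome arms, had 245, 247 and 237 CPM with DMSO and 201, 214 and 196 at 500 nM in OCI-Ly1. It fell by 0.26 (SE 0.05, adjusted p = 3.87e-04), a call not made on log2(TPM + 1) (adjusted p = 0.0906). In TMD8 KIF22 went from 127, 114 and 106 CPM to 73.6, 72.2 and 67.5, a fall of 0.70 (adjusted p = 2.87e-08).

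The kinetochore genes were split. Of 6, 5 fell in each line at 500 nM, with group medians of -0.30 in OCI-Ly1 and -0.81 in TMD8, and the 2 large corona proteins CENPE and CENPF fell most. CENPE is a kinesin motor that carries chromosomes to the spindle equator. It had 212, 233 and 256 CPM with DMSO in OCI-Ly1, 200.2, 240.5 and 266 at 150 nM, then 110.2, 113 and 118 at 500 nM. In TMD8 CENPE had 195, 171 and 165 CPM, then 116, 98.9 and 105, then 59.7, 56.1 and 60.5. It fell by 1.04 (SE 0.08, adjusted p = 1.37e-08) and 1.59 (SE 0.07, adjusted p = 3.94e-12). CENPF fell by 0.75 and 1.32. With CENPE counted among the kinesins, the kinesin medians were -0.52 and -0.97 and the kinetochore medians -0.27 and -0.64.

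The 4 subunits of the NDC80 complex, which grips microtubules, differed in size of change. NUF2 fell by 0.27 and 0.99 and NDC80 by 0.34 and 0.64 in OCI-Ly1 and TMD8. SPC24 had 42.9, 41.0 and 37.2 CPM with DMSO and 38.8, 41.0 and 38.1 at 500 nM in OCI-Ly1, which overlap (-0.04, SE 0.07, adjusted p = 0.671). In TMD8 SPC24 had 15.7, 14.2 and 14.99 CPM, then 13.5, 12.6 and 13.7, then 13.0, 11.2 and 10.6. It fell at 500 nM (-0.35, SE 0.10, adjusted p = 0.00417) and was not called at 150 nM (-0.17, adjusted p = 0.140). SPC25, its partner, had 60.3, 65.0 and 60.0 CPM with DMSO in TMD8, 63.6, 64.2 and 65.2 at 150 nM, then 61.4, 58.6 and 60.5 at 500 nM. It was the one member not called at 500 nM in that line (-0.04, SE 0.05, adjusted p = 0.549). On log2(TPM + 1), where the median of all genes was -0.22, SPC25 was called lower (-0.40, adjusted p = 0.00148). With that scale centred on the median of each library it was -0.15 (adjusted p = 0.0163). In OCI-Ly1 SPC25 had 50.2, 49.8 and 54.9 CPM with DMSO and 43.9, 45.5 and 45.2 at 500 nM. That fall of 0.20 (SE 0.08, adjusted p = 0.0313) was not called on log2(TPM + 1) (0.562), without TMM scaling (0.213), without any 1 of the 500 nM libraries (0.0524 to 0.0942) or without DMSO library 3 (0.122).

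All 7 spindle and cytokinesis genes fell in each line at 500 nM (medians -0.66 and -1.33). HMMR, a spindle-pole protein, had 130.2, 135 and 149 CPM with DMSO in OCI-Ly1, 118, 145 and 154 at 150 nM, then 63.1, 67.5 and 67.0 at 500 nM. In TMD8 HMMR had 93.6, 83.9 and 85.9 CPM, then 50.8, 50.97 and 44.6, then 34.4, 33.4 and 36.9. It fell by 1.07 (SE 0.08, adjusted p = 5.17e-09) and by 1.33 (SE 0.07, adjusted p = 2.05e-11). ASPM, which gathers microtubule minus ends at the poles, had 356, 364 and 412 CPM in OCI-Ly1 with DMSO and 202, 222 and 230.0 at 500 nM, and in TMD8 334, 279 and 293 against 111, 113 and 113. Its falls were 0.79 (adjusted p = 1.81e-07) and 1.42 (adjusted p = 8.30e-12). TPX2, the activator of AURKA, fell by 0.66 and 1.36, and DLGAP5, a spindle-assembly protein, by 1.005 and 1.33.

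PRC1, which bundles the central spindle, had 237, 235 and 247 CPM with DMSO and 183, 189 and 182 at 500 nM in OCI-Ly1, the smallest fall of this group there (-0.38, adjusted p = 6.82e-06). In TMD8 PRC1 went from 158, 143 and 153 CPM to 65.8, 67.1 and 67.8 (-1.18, adjusted p = 3.38e-11). ANLN, the scaffold of the contractile ring, had 97.3, 87.3 and 86.6 CPM with DMSO and 58.3, 58.4 and 59.2 at 500 nM in TMD8, the smallest fall there (-0.62, adjusted p = 2.57e-08). In OCI-Ly1 ANLN went from 165, 179 and 195 CPM to 132, 130.0 and 133 (-0.45, adjusted p = 5.14e-06). ECT2, which activates RhoA for cytokinesis, fell by 0.43 and 1.18.

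FOXM1, a transcription factor for many of these genes, and TOP2A, the topoisomerase that untangles sister chromatids, parted in OCI-Ly1. FOXM1 had 102, 105 and 97.0 CPM with DMSO there, 104.3, 95.0 and 99.6 at 150 nM, then 97.6, 97.0 and 103.9 at 500 nM, all overlapping (-0.02 at 500 nM, SE 0.06, adjusted p = 0.752). In TMD8 FOXM1 had 127, 113 and 118 CPM, then 96.6, 90.3 and 94.5, then 73.4, 79.4 and 77.0, and it fell by 0.64 (SE 0.05, adjusted p = 1.21e-08). TOP2A had 1093, 1126 and 1206 CPM with DMSO in OCI-Ly1, 1147, 1208 and 1275 at 150 nM, then 759.7, 765 and 771 at 500 nM. In TMD8 TOP2A had 708, 624 and 627 CPM, then 457, 416 and 389, then 252, 252 and 250.5. TOP2A fell by 0.58 (SE 0.05, adjusted p = 1.45e-08) in OCI-Ly1 and by 1.38 (SE 0.06, adjusted p = 5.13e-12) in TMD8.

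The 8 members not called in OCI-Ly1 at 500 nM were CDC25B, CDC25C, BUB3, ESPL1, NEK2, KIF2C, SPC24 and FOXM1. Of these, 7 fell in TMD8 at both doses, and SPC24 fell there at 500 nM and was not called at 150 nM. All 8 had fitted values below 0 in OCI-Ly1. On log2(TPM + 1) or log2(TPM + 0.1), where the median of all genes shifts by 0.10 and 0.13, the 7 of them with per-scale values (not computed for CDC25C) came out above 0, up to 0.12 for FOXM1, and were not called. With log2(TPM + 1) centred on the median of each library, BUB3, ESPL1, NEK2 and KIF2C were called lower.

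The fall was larger in TMD8 for 45 of the 46 genes at 500 nM, in 1 fit of all 18 libraries (change in OCI-Ly1 minus change in TMD8 called above 0, against 28.2% of 16604 genes), and for 43 at 150 nM, against 15%. In the other direction 0 were called at either dose (edgeR and DESeq2, with 0 at an unadjusted p under 0.05), against 18.1% and 8.33% of all genes. The median difference of the 46 genes was 0.73 at 500 nM and 0.66 at 150 nM, beside 0.049 and -0.00229 over all genes. PLK1 differed by 1.50 (SE 0.13, adjusted p = 4.65e-10), CDC20 by 1.46 (SE 0.13, adjusted p = 1.01e-09) and UBE2C by 1.33 (SE 0.09, adjusted p = 3.26e-12). The smallest called differences were those of ANLN (0.21, adjusted p = 0.0476), HMMR (0.30, adjusted p = 0.0350) and INCENP (0.31, adjusted p = 0.00245). The ANLN difference was called in 7 of 19 alternatives, that of HMMR in 10 and that of SPC24 (0.34, adjusted p = 0.0216) in 15. Among those not called, adjusted p reached 0.145, 0.164 and 0.0700. Without DMSO library 1 of TMD8 the ANLN and HMMR differences were 0.15 and 0.25 (adjusted p = 0.145 and 0.0948). SPC25 had a value of -0.14, which was not called (adjusted p = 0.245), and on log2(TPM + 1) it was 0.34 and called (0.0200). In the separate fits of each line on that scale, the median change of all genes was 0.10 in OCI-Ly1 and -0.22 in TMD8.

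By role, the median difference at 500 nM was 1.04 for the APC/C and anaphase genes and 1.02 for the kinases, 0.80 for the passenger complex, 0.73 for the checkpoint and 0.71 for the kinesins. It was 0.66 for the spindle and cytokinesis genes, 0.60 for the cyclins and CDK1 regulators, and 0.46 for the kinetochore. Across the 46 genes, the 500 nM changes of the lines had Pearson's r = 0.864 and Spearman's rho = 0.857, beside 0.401 and 0.320 over all 14483 genes. This is a description across genes, which share libraries and are not independent, and the lines do not share control libraries.

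**Figure D4:**
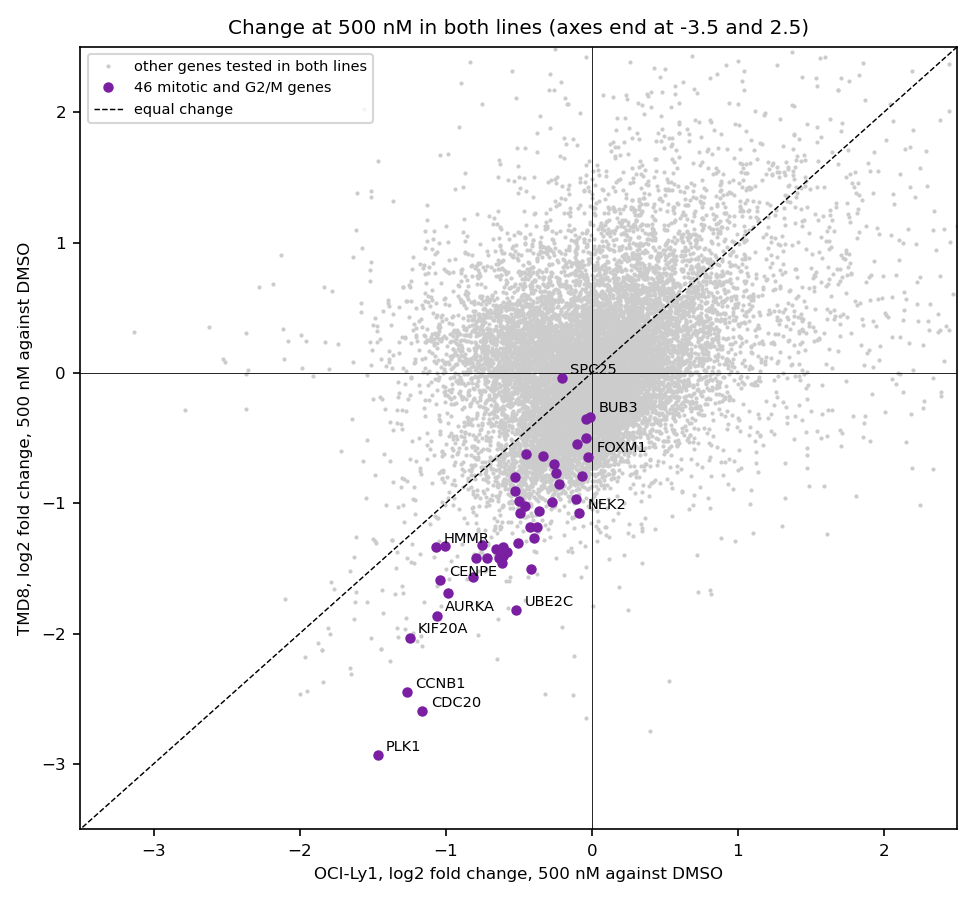
Log2 fold change at 500 nM against DMSO in OCI-Ly1 (x axis) and TMD8 (y axis) for the 46 genes (purple) over the other genes tested in both lines (grey, of which 226 lie outside the axes); the dashed line marks equal change. All members but SPC25 lie below the dashed line, from BUB3 near the top to PLK1 at the bottom.

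Other genes of the mitotic machinery or of its control, taken from 7 lists by textbook role, moved less as a whole. One of these lists holds DREAM and MuvB regulators, CDKN1A among them, which are not parts of the machinery. Of 100 such genes, all tested, 48 were called lower and 20 higher in OCI-Ly1 at 500 nM (median -0.12), against 25.9% and 27.7% of all genes, and 73 lower and 9 higher in TMD8 (median -0.51), against 30.7% and 29.9%. At 150 nM in OCI-Ly1, edgeR called 0 lower and 1 higher (4 and 8 at an unadjusted p under 0.05), and in TMD8 71 were lower and 4 higher, against 25.0% and 19.2% of all genes. The 1 higher was CDKN1A. All 4 further mitotic kinesins fell in both lines (medians -0.50 and -0.70), as did 15 of 19 and 17 of 19 further spindle and cytokinesis genes. Of 14 structural APC/C subunits, 5 fell and 2 rose in OCI-Ly1, and 9 fell in TMD8. Of 18 inner kinetochore genes, 6 fell and 6 rose in OCI-Ly1, and 11 fell and 3 rose in TMD8. Of 17 further outer kinetochore and checkpoint genes, 5 fell and 4 rose in OCI-Ly1, and 12 fell and 2 rose in TMD8. Of 12 DREAM and MuvB regulators, 4 fell and 4 rose in OCI-Ly1 (median 0.03), and 6 fell and 3 rose in TMD8 (median -0.19). In OCI-Ly1 the shares called lower of the inner and outer kinetochore lists, 33.3% and 29.4%, lay near the share of all genes. So did that of the DREAM and MuvB list, at 33.3%.

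Among these genes CCNF, a cyclin that marks proteins for degradation, fell by 1.33 (SE 0.08, adjusted p = 2.87e-10) in OCI-Ly1 and by 1.38 (adjusted p = 1.12e-12) in TMD8 at 500 nM. KNSTRN, a kinetochore adaptor, fell by 0.81 and 1.39, and PSRC1, a spindle protein, by 0.78 and 2.01 (-1.17 on log2(TPM + 1) in TMD8, and -0.92 when centred, still called). CENPA, the centromeric histone H3 variant, fell by 0.64 in OCI-Ly1 and by 1.89 in TMD8. DEPDC1 fell by 0.73 and 1.51, and ARHGAP11A, a RhoA regulator, fell to 64.6% and 37.9% of DMSO. MAD1L1, the anchor of MAD2 at the kinetochore, rose by 0.62 (SE 0.07, adjusted p = 1.03e-06) and 0.90 (SE 0.09, adjusted p = 9.59e-08). LIN37, a core subunit of DREAM, rose by 0.86 and 0.47, the latter not called on log2(TPM + 1) (adjusted p = 0.586).

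CDKN1A encodes p21, the CDK inhibitor whose induction brings DREAM to mitotic promoters. Its OCI-Ly1 libraries held 17.6, 16.2 and 17.4 CPM with DMSO, 40.1, 38.9 and 35.3 at 150 nM, then 144, 141 and 139 at 500 nM. In TMD8 CDKN1A held 72.7, 77.9 and 82.6 CPM, then 146, 169.8 and 172, then 210.2, 218 and 222. No group overlapped another in either line. It rose by 3.05 (SE 0.07, adjusted p = 5.34e-16) in OCI-Ly1 and by 1.48 (SE 0.06, adjusted p = 2.40e-12) in TMD8 at 500 nM. At 150 nM CDKN1A rose by 1.16 in OCI-Ly1, where edgeR called 0 of the 46 members and DESeq2 called 1, and by 1.07 in TMD8. Whether the CDKN1A rise is linked to the change of the members was not tested.

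Genes of DNA replication and a list of 14 interphase transport kinesin genes were set beside the members. That kinesin list also holds the light chains KLC1 and KLC2, which are not motors, and KIF2A, which takes microtubules apart and carries no cargo. Of 42 replication genes, 10 fell (23.8%, near the 25.9% of all genes) and 14 rose (against 27.7% of all genes) in OCI-Ly1 at 500 nM (median 0.06). In TMD8 29 fell (69%, against 30.7% of all genes) and 5 rose (against 29.9%), with a median of -0.40. At 150 nM in OCI-Ly1, edgeR called 0 lower and 0 higher, against 0.141% and 0.748% of all genes. At an unadjusted p under 0.05 there were 0 and 3, against 4.64% and 5.51%. In TMD8 29 fell and 1 rose at 150 nM, against 25.0% and 19.2% of all genes. RFC3, a clamp-loader subunit, fell by 0.55 and 0.52, GINS1, of the replicative helicase, by 0.38 and 0.74, and DBF4, the activator of CDC7, by 0.21 and 0.92. The DBF4 call in OCI-Ly1 (adjusted p = 0.0283) was lost in 7 of 15 alternatives, among them log2(TPM + 1) (0.610), no TMM scaling (0.169), and the fits without 500 nM library 1 (0.0692) or 3 (0.0845) or DMSO library 2 (0.0529) or 3 (0.129). LIG1, the replicative ligase, rose by 0.26 and 0.45, the latter not called on log2(TPM + 1) (0.07, adjusted p = 0.530). Of the 14 genes on the transport kinesin list, 1 fell and 7 rose in OCI-Ly1 at 500 nM (median 0.11), against 25.9% and 27.7% of all genes. In TMD8 6 fell (42.9%) and 5 rose (median 0.0046), against 30.7% and 29.9% of all genes. KIF21B rose by 1.92 in OCI-Ly1 and fell by 0.16 in TMD8 (not called without TMM scaling, -0.07, adjusted p = 0.211), and KIF1B rose by 1.47 and fell by 0.20. KIF13A rose in both lines, by 1.52 and 0.75, but in OCI-Ly1 it was not called on log2(TPM + 1) (0.41, adjusted p = 0.118), on log2(TPM + 0.1) (0.58, adjusted p = 0.123) or when centred (0.19, adjusted p = 0.440).

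**Figure D5:**
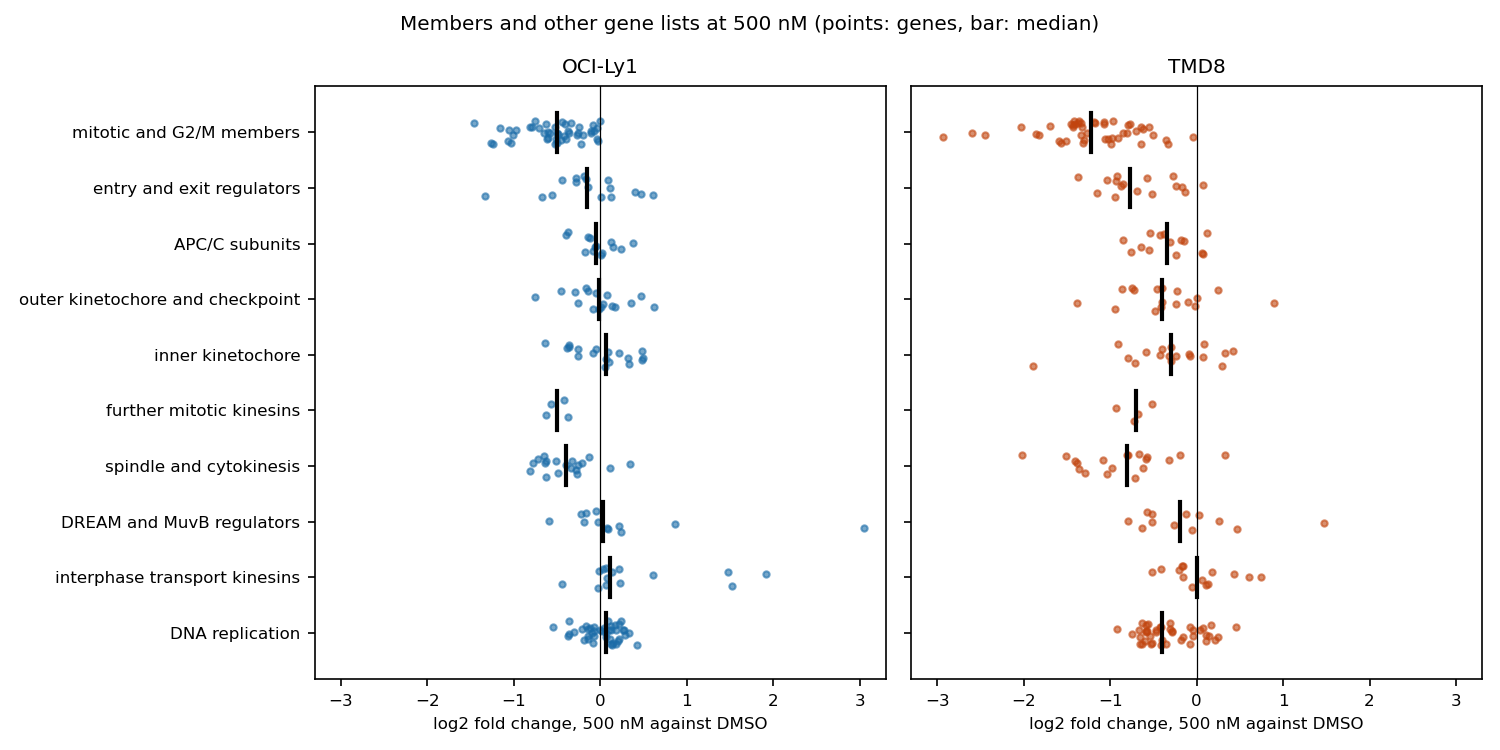
Log2 fold change at 500 nM against DMSO (x axis) of the 46 members and of 9 other gene lists in OCI-Ly1 (left) and TMD8 (right); points are genes and bars the median of the list. The members' medians are -0.50 and -1.22; the further mitotic kinesins have the same median to 2 decimals in OCI-Ly1, and the single point near 3.05 in OCI-Ly1 is CDKN1A.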

How the data were processed

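RNA of OCI-Ly1 and TMD8 cells was depleted of ribosomal RNA and sequenced in 18 paired-end libraries, 9 per line and 3 per group. Per the submitters' processing notes, kallisto 0.46.0, R 4.3.1, DESeq2 1.40.2 and the build hg19 were used, with no roles given. The authors deposited estimated counts per gene and, separately, TPM values (a level per transcript length), and the names of those tables credit both to kallisto. How transcripts were summed to genes is not given in the sources used here.

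Estimated counts were rounded to whole numbers. Within each line the 9 libraries were fitted together with edgeR 4.0.16 in R 4.3.3 (filterByExpr, TMM scaling, quasi-likelihood test, Benjamini-Hochberg adjustment over all genes tested), and calls had an adjusted p under 0.05. The difference between lines came from 1 fit of 18 libraries. CPM values are counts scaled by TMM to a common library size, and SEs derive from the F statistic. The value edgeR names the biological coefficient of variation was 6.84% in OCI-Ly1 and 5.30% in TMD8. With libraries labelled technical triplicates, it may hold technical spread only. DESeq2 1.42.0 and limma 3.58.1 on log2(TPM + 1) served as alternatives, together with other scalings, no low-count filter, other sample sets, a replicate block, and leaving out each library. On simulated counts for 500 nM against DMSO, 87.8% of genes changed 0.5-fold were recovered in OCI-Ly1 (15210 genes) and 80.4% in TMD8 (14760 genes). For 0.8-fold changes, simulated in 47 and 48 genes, the shares were 31.9% and 41.7%. In the measured counts far more genes changed, with 4057 called lower and 4330 higher in OCI-Ly1 at 500 nM. A call adjusted over all genes depends on how many change, so these shares do not describe the calling of the members. The rate for the members was not tested.

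The 46 genes, the other lists and the tests were chosen with earlier results of these data known. In each role group, library values are given for the members with the largest and the smallest change at 500 nM in each line, and for the 3 largest differences between lines in each direction. Of other lists, the 3 largest called falls and rises in each line with at least 5 CPM were candidates for naming, and CDKN1A is always given. Python 3.11.15 and matplotlib 3.10.9 drew the figures. A further B-cell marker is not reported here.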

Additional observations from a re-analysis of the deposited data

Results flagged for a closer look

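For 22 of the members named with library values, the change at 500 nM differed between the lines in a test of the difference itself (edgeR, 18 libraries, OCI-Ly1 change minus TMD8 change on the log2 scale). Each value was above 0, which is a larger fall in TMD8. Over all 16604 genes, 28.2% were called above 0. The members were named by their change at 500 nM, and some by this same difference, so their count is not independent of the naming. The largest were PLK1 at 1.50, CDC20 at 1.46, UBE2C at 1.33, CCNB1 at 1.21 and NEK2 at 1.02. KIF2C differed by 0.89, PRC1 by 0.83, TOP2A by 0.83, KIF20A by 0.82, AURKB by 0.78, ESPL1 by 0.75 and BUB1 by 0.74. ASPM differed by 0.66, FOXM1 by 0.65, CENPE by 0.58, CDC25B by 0.49 and KIF22 by 0.47. The smallest were BUB3 at 0.36, SPC24 at 0.34, INCENP at 0.31, HMMR at 0.30 and ANLN at 0.21. The ANLN difference was called in 7 of 19 alternatives, that of HMMR in 10 and that of SPC24 in 15. Line, medium and depth differ together, and their parts were not tested.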

How the results depend on the processing

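Of the gene-level values recomputed under the alternatives, 2839 stayed on their side of the threshold (60 of them uncalled values with the other sign), 85 lost a call, 29 gained one, and 4 changed sign with a call under at least 1 of the fits compared. In OCI-Ly1 at 150 nM the count of members called lower was 1 in place of 0 with DESeq2, with no low-count filter and with the replicate block (PLK1, adjusted p = 0.0338). Leaving out 1 library gave 0 to 2 (2 without 150 nM library 1, 1 without DMSO library 3). In TMD8 at 150 nM, 1 member was called higher in place of 0 without TMM scaling. The members' median at 500 nM in OCI-Ly1 was -0.58 on centred log2(TPM + 1), -0.41 without TMM scaling and -0.36 at either TPM pseudocount (0.1 or 1), and -0.53 to -0.45 with 1 library left out. In TMD8 at 500 nM it was -1.255 in the fit of all 18 libraries, -1.13 without TMM scaling, -1.60 on log2(TPM + 0.1), -1.49 on log2(TPM + 1), and -1.24 to -1.19 with 1 library left out. At 150 nM in TMD8 it was -0.80 on log2(TPM + 0.1). Over all genes the median at 500 nM shifted to 0.10 and 0.13 on the TPM scales and -0.12 when centred in OCI-Ly1, and to -0.22, -0.31 and, without TMM scaling, 0.13 in TMD8. Relative to those shifts the members' median lay at -0.54 to -0.46 in OCI-Ly1 and -1.34 to -1.26 in TMD8. Of all calls at 500 nM, 51.6% were higher in OCI-Ly1, against 71.9% on log2(TPM + 1), 64.0% without TMM scaling and 32.3% when centred. In TMD8 the share was 49.35%, against 18.8% on log2(TPM + 1) and 59.4% without TMM scaling. Among values with a call, signs changed for KIF1C in TMD8 at 500 nM, called higher at 0.13 by edgeR, which was -0.24 on log2(TPM + 0.1) and -0.22 on log2(TPM + 1), and for the SPC25 difference between lines, which was 0.35 and 0.34 on those scales. On those scales the median of all genes in TMD8 at 500 nM was itself -0.31 and -0.22, and KIF1C was 0.03 and not called when centred (adjusted p = 0.59). The KIF1C call was also lost in 7 other alternatives, among them the centred scale, DESeq2 (adjusted p = 0.0732) and the fit without DMSO library 1 (0.164). The cause was not tested.

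Replicate numbers did not pair the libraries: the 9 same-number correlations of deviations were -0.046 to 0.15 (OCI-Ly1) and -0.055 to 0.14 (TMD8). With the replicate block, 38 members were called lower in OCI-Ly1 and 45 in TMD8 at 500 nM (medians -0.50 and -1.23), 44 in TMD8 at 150 nM, and 44 differed between the lines at 500 nM.

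The triplicates are labelled technical, no treatment time is given, and depth limits the calling of small changes, with 88 counts for the lowest member value.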
